A study of Mus musculus with 6 samples.

Results

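Unc13d and Rab27a encode a pair of partners in regulated exocytosis, and in whole ovaries of Bnc1tr/tr mice both transcripts stood well below the Bnc1+/+ level. The genes described here are the Unc13 family (Unc13a, Unc13b, Unc13c and Unc13d), both Rab27 genes (Rab27a and Rab27b), and Stxbp2 and Stx11, which is 8 of the 44788 genes in the count table, found by their symbols. They were chosen by the fall in CPM of Unc13d and Rab27a from Bnc1+/+ to Bnc1tr/tr in these same 6 ovaries, together with their relatives and partners, so their differences between genotypes are given as a description, with no p-value, and where the fit over all genes called one of them that is recorded and nothing is read from it. RNA-seq was done on ovaries of 3 wild-type Bnc1+/+ mice (replicates 1, 4 and 7) and 3 homozygous Bnc1tr/tr mice (replicates 1, 2 and 3), all C57BL/6 J and 8 weeks old. The tr allele is a small frameshift deletion in Bnc1, the gene of the zinc finger protein basonuclin 1, that leaves a premature stop codon. It was carried in the germ line, so every cell type of the Bnc1tr/tr ovary bore it, and the study bred its mice from heterozygous crosses. No treatment was named for either group.

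Libraries held 25247770 to 34406296 counts. Levels are given as CPM, the read count scaled to a common library total after correction by trimmed mean of M values (TMM), and differences as log2 fold changes, Bnc1tr/tr minus Bnc1+/+, with their standard error (SE). Bnc1 itself was at 13.5 ± 0.407 CPM in Bnc1+/+ against 14.6 ± 3.72 CPM in Bnc1tr/tr (mean ± SD, n = 3 each), a log2 fold change of 0.12 (SE 0.18, edgeR adjusted p = 0.733), and the values of the genotypes overlapped, so the labels cannot be checked by this transcript. Of 19423 genes tested, 7.06% passed an adjusted p of 0.05, 4.19% of them as lower and 2.88% as higher in Bnc1tr/tr (percentages of all tested genes). The values of the genotypes did not overlap for 30.8% of tested genes, 15.8% lower and 15.0% higher. These shares are the background against which each count below stands.

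Regulated exocytosis delivers a stored vesicle to the plasma membrane in steps. A Rab27 GTPase on the vesicle binds effectors that tether it near the membrane, a Munc13 protein such as Munc13-4 (the product of Unc13d) docks and primes it, and a syntaxin with its Sec1/Munc18 partner (here syntaxin 11, from Stx11, and Munc18-2, from Stxbp2) drives fusion together with SNAP and VAMP proteins. In cytotoxic lymphocytes the products of Unc13d, Rab27a, Stx11 and Stxbp2 act together in the release of lytic granules, and loss of any of the human counterparts causes an inherited immune disorder. Unc13a, Unc13b and Unc13c encode the Munc13 proteins of synapses and some endocrine cells, and Rab27b is the close relative of Rab27a.

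Of the promoter windows in RefSeq (build GRCm38.p6, 250 bases before to 50 bases after a gene's start), 6 of the 8 genes had one. Unc13d and Rab27b had none. The windows of Rab27a and of Sytl3, a Rab27 effector gene, are shown because both genes were lower in Bnc1tr/tr by an amount near that of Unc13d. They lie on the plus strand at chr9:73044560-73044859 and chr17:6658809-6659108 and read 5′ to 3′. Capitals mark matches, on either strand, to the motifs searched.
Rab27a: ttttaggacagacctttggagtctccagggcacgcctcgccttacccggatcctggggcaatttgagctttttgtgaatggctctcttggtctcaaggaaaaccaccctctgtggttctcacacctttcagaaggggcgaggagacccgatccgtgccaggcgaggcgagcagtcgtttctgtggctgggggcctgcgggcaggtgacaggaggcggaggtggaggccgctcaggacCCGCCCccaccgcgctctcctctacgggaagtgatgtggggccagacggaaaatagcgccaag
Sytl3: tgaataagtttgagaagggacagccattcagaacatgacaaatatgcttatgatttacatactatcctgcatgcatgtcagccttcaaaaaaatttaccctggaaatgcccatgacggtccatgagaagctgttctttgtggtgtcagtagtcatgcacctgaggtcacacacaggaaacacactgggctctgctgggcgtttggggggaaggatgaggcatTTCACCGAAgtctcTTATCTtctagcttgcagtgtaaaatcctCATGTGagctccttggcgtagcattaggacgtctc
The motifs searched were AAGGTCA (an NR5A element, the site of steroidogenic factors), TGACGTCA (a cyclic AMP response element), AGATAA (the site of GATA factors), TTCNNNGAA (a STAT5 site), CATGTG (an MITF E-box) and GGGCGG (an SP1 GC box). The Rab27a window held 1 GC box on the minus strand, a motif found in 35.6% of all 32817 windows. GC boxes also lay in the windows of Unc13a, Unc13b, Unc13c and Stx11, but not in that of Stxbp2. The Sytl3 window held a STAT5 site (8.29% of windows), a GATA site on the minus strand (11.2%) and an E-box (14.2%). A second Rab27a window at chr9:73063898-73064197 held none of the 6, and neither gene's window held the NR5A element (4.72% of windows) or the cyclic AMP element (1.79%). No 2 of the capitalised matches overlapped, and a match is a run of letters, not a bound site.

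Unc13d, on the minus strand of chr11:116062095-116077961 (GRCm38, GENCODE M21), had 3653, 5954 and 4925 counts in the Bnc1+/+ ovaries against 615, 604 and 697 in the Bnc1tr/tr ovaries. In CPM these were 135.8, 179.9 and 169.9 against 21.87, 23.25 and 24.57. Each Bnc1tr/tr ovary was far below each Bnc1+/+ ovary, and the Bnc1tr/tr values lay close together. The means were 161.8 ± 23.1 and 23.23 ± 1.35 CPM (SD, n = 3 each), 6.97-fold lower in Bnc1tr/tr, with a log2 fold change of -2.80 (SE 0.13, 95% interval -3.09 to -2.51). By log2 fold change it was number 57 from the bottom of the 19423 genes tested. In bulk tissue, fewer cells of a type and less RNA per cell cannot be told apart, for this gene and for those that follow.

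Rab27a, on the plus strand of chr9:73044854-73097629, had 164.6, 213.8 and 198.6 CPM in the Bnc1+/+ ovaries against 20.31, 34.95 and 34.08 CPM in the Bnc1tr/tr ovaries, from 4427, 7078 and 5757 counts and 571, 908 and 967 counts. All 3 Bnc1tr/tr values were again far below the Bnc1+/+ values, with replicate 1 the lowest. The means were 192.3 ± 25.2 and 29.78 ± 8.22 CPM, 6.46-fold lower in Bnc1tr/tr, and the log2 fold change was -2.69 (SE 0.22, 95% interval -3.19 to -2.19), number 63 from the bottom. Of its exonic bases, 149 (3.84%) are shared with the pseudogene Gm27186 on the same strand, whose reads could not be separated there. Both genes are among the 120 tested genes (0.618%) that passed the adjusted p and had a log2 fold change under -2. Since their fall was the reason for choosing them, nothing is read from that.

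The syntaxin and Sec1/Munc18 partners were lower by smaller amounts. Stx11 had 14.46, 12.24 and 21.25 CPM in Bnc1+/+ against 4.837, 10.35 and 6.944 CPM in Bnc1tr/tr. Its lowest Bnc1+/+ ovary stood only a little above its highest Bnc1tr/tr ovary, and the means (15.98 ± 4.69 and 7.378 ± 2.78 CPM) differed 2.17-fold, a log2 fold change of -1.12 (SE 0.30). Stxbp2 had 111.5, 107.7 and 114.6 CPM against 78.71, 90.76 and 88.79 CPM. The groups did not overlap, but the difference was small, with means of 111.3 ± 3.44 and 86.09 ± 6.46 CPM and a log2 fold change of -0.37 (SE 0.084). With 1 ovary left out the log2 fold change of Stxbp2 ran from -0.41 to -0.31. That of Stx11 ran from -1.44 without Bnc1tr/tr replicate 2 to -0.86 without Bnc1+/+ replicate 7, in each case its highest ovary of that genotype.

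**Figure D1:**
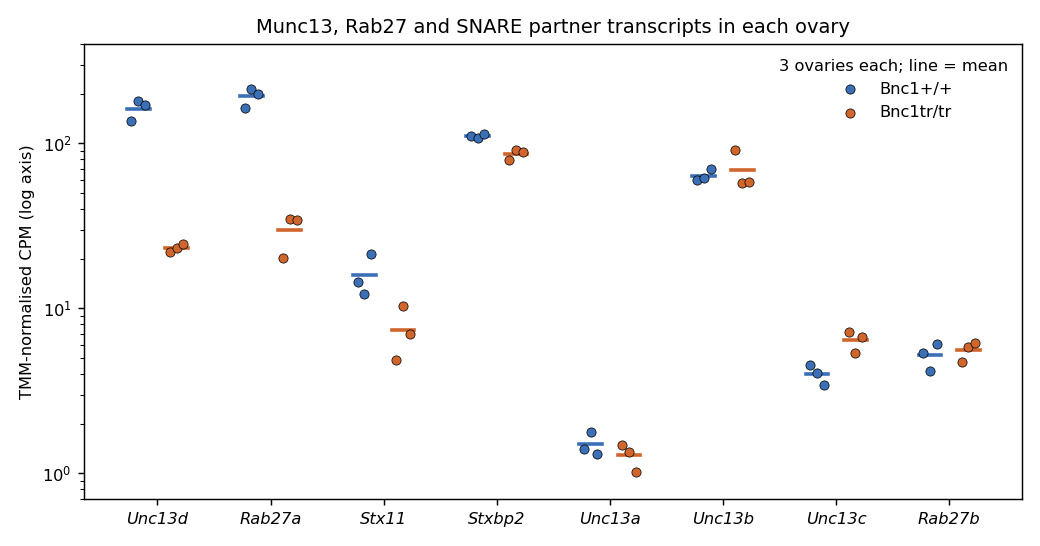
CPM (log axis) of the 8 genes in each ovary, with 3 points per genotype and a bar at the mean. Unc13d and Rab27a show a wide gap between Bnc1+/+ and Bnc1tr/tr, Stxbp2, Stx11 and Unc13c a narrow one, and Unc13a, Unc13b and Rab27b overlap.

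The other Munc13 genes and Rab27b did not show this fall. Unc13b, the most counted of the remaining Munc13 genes, had 59.81, 61.33 and 70.01 CPM in Bnc1+/+ against 90.52, 57.2 and 58.02 CPM in Bnc1tr/tr, with a log2 fold change of 0.11 (SE 0.18) that was -0.15 without Bnc1tr/tr replicate 1, the one high ovary. Unc13c went the other way, with 4.535, 4.048 and 3.449 CPM in Bnc1+/+ against 7.185, 5.35 and 6.697 CPM in Bnc1tr/tr, a log2 fold change of 0.68 (SE 0.19). Its groups did not overlap, though its counts were low (100 to 202 per ovary).

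Unc13a, the Munc13 gene best known from excitatory synapses, had only 29 to 59 counts per ovary. Its levels of 1.413, 1.783 and 1.311 CPM in Bnc1+/+ against 1.494, 1.347 and 1.022 CPM in Bnc1tr/tr overlapped, with a log2 fold change of -0.22 (SE 0.26). It also shares 495 exonic bases (3.92%) with Colgalt1 on the opposite strand, and whether counting used strand is not given in the sources used here. Rab27b had 5.353, 4.199 and 6.07 CPM against 4.731, 5.812 and 6.168 CPM, with a log2 fold change of 0.10 (SE 0.20), and its groups overlapped.

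Over the 8 genes, all of which passed the filter on low counts, the edgeR fit to all 6 ovaries called 3, each lower in Bnc1tr/tr (Unc13d, Rab27a and Stxbp2), beside a background of 4.19% lower. Values did not overlap for 4 that were lower (these and Stx11) and 1 that was higher (Unc13c). Stxbp2 was not called with any 1 ovary left out or with scaling by library size alone. Stx11 was called by DESeq2, with no filter and without Bnc1tr/tr replicate 2, and Unc13c by DESeq2 and with scaling by library size alone. The choice of genes fixed part of these counts, so they are given only as a record.

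Levels of different genes were compared as RPKM, the CPM divided by the length in kilobases of the exons of the gene. The length was 22746 bases for Unc13b against 4679 for Unc13d and 4209 for Stx11, and the annotation used for counting may differ. By CPM, Unc13b stood above Stx11 in Bnc1+/+ (means 63.72 and 15.98). In Bnc1+/+ ovaries Rab27a was the highest at 49.6 RPKM (42.4 to 55.1 over the 3 ovaries), followed by Unc13d at 34.6 (29.0 to 38.4) and Stxbp2 at 26.8 (25.9 to 27.6), and these ranges did not overlap. Stx11 at 3.80 RPKM and Unc13b at 2.80 RPKM came next with overlapping ranges, then Rab27b at 0.488 and Unc13c at 0.456, also overlapping, and Unc13a at 0.119. In Bnc1tr/tr ovaries the order was different, and Stxbp2 led at 20.7 RPKM (18.9 to 21.8). Rab27a at 7.68 (5.24 to 9.01) and Unc13d at 4.97 RPKM (4.68 to 5.25) followed and overlapped each other, above Unc13b at 3.02, Stx11 at 1.75, Unc13c at 0.729, Rab27b at 0.522 and Unc13a at 0.102 RPKM.

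Within its own family each of the falling genes was the main transcript of the Bnc1+/+ ovary. Unc13d made up 89.9%, 92.1% and 91.0% of summed Unc13 RPKM in the Bnc1+/+ ovaries against 48.8%, 60.6% and 60.8% in the Bnc1tr/tr ovaries. The mean share thus went from 91.0% ± 1.10 to 56.7% ± 6.89 (SD, n = 3 each), while that of Unc13b went from 7.44% to 33.9%. The summed Unc13 level was 32.28, 41.74 and 39.88 RPKM against 9.590, 8.198 and 8.644 RPKM. Rab27a, by contrast, remained nearly all of the Rab27 signal, at 99.0% of the summed RPKM in Bnc1+/+ against 93.4% in Bnc1tr/tr. The Rab27 sum was 42.93, 55.52 and 51.76 RPKM against 5.679, 9.554 and 9.365 RPKM. These shares depend on dividing by length, and by raw counts Unc13d was 69.9% and 24.0% of the Unc13 family and Rab27a 97.3% and 83.8% of the Rab27 pair.

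**Figure D2:**
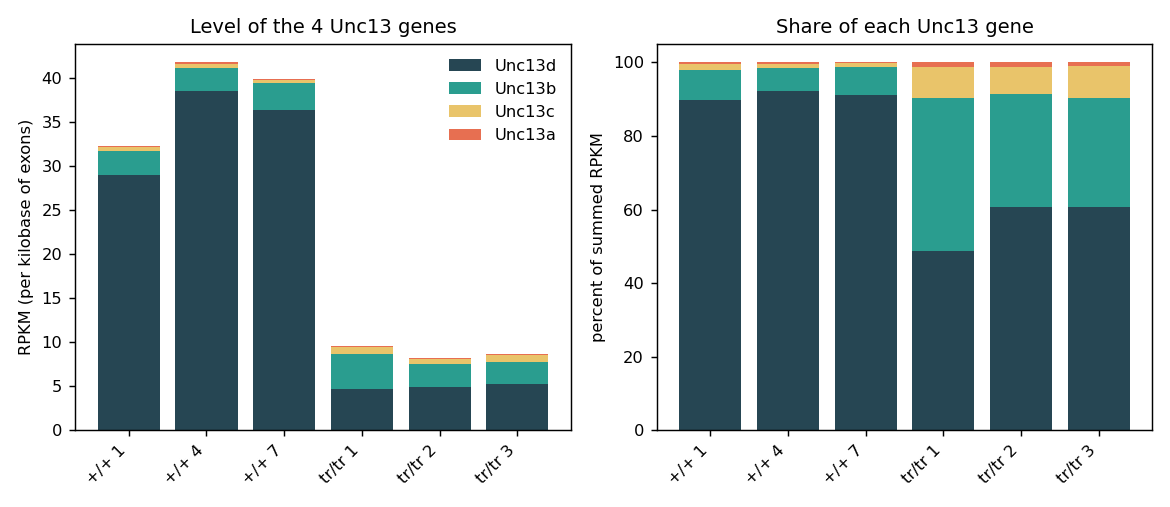
Stacked bars of the RPKM of the 4 Unc13 genes in each of the 6 ovaries (left) and the percent of their sum held by each (right), coloured by gene. The Unc13d segment shrinks in the 3 Bnc1tr/tr ovaries and the sum with it, from 32.28 RPKM or more to 9.590 RPKM or less.

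The ratio between the partners was also compared. Per length, Rab27a stood at 1.46, 1.43 and 1.41 times Unc13d in the Bnc1+/+ ovaries against 1.12, 1.81 and 1.67 times in the Bnc1tr/tr ovaries, so the ratio was tight in the first group and spread to both sides of it in the second. Stxbp2 stood at 0.924, 0.674 and 0.759 times Unc13d in Bnc1+/+ against 4.05, 4.39 and 4.07 times in Bnc1tr/tr.

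Genes next to Unc13d and Rab27a on the chromosome did not share the size of their fall. Wbp2, 612 bases from Unc13d in the annotation, had 192.9 CPM in Bnc1+/+ against 155.0 CPM in Bnc1tr/tr (log2 fold change -0.32, edgeR adjusted p = 0.07). Unk, 881 bases away on the other side, had 58.6 and 63.5 CPM with overlapping groups (log2 fold change 0.12, edgeR adjusted p = 0.529). Beside Rab27a, Pigb (4476 bases away) had a log2 fold change of -0.23 (edgeR adjusted p = 0.236) and Khdc3 (4207 bases away), an oocyte gene, one of 0.53 (edgeR adjusted p = 0.0821). None of the 4 passed the test. The values of the genotypes did not overlap for Wbp2 and Pigb, which were lower, and Khdc3, which was higher, beside 30.8% of all tested genes without overlap.

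Further genes of the exocytosis pathway were drawn from 7 lists of 115 genes, of which 102 were tested. With all 6 ovaries 12 passed, 11 lower and 1 higher in Bnc1tr/tr, or 12 of 102 beside the 7.06% over all genes. With 1 ovary left out, which lowered the calls over all genes from 1372 to between 320 and 1282, the number was 0 without Bnc1+/+ replicate 4 or replicate 7 (29 and 24 genes then had an unadjusted p under 0.05, beside 37 with all ovaries), 1 without Bnc1tr/tr replicate 3 (28 unadjusted), 5 without Bnc1+/+ replicate 1, 8 without Bnc1tr/tr replicate 1 and 13 without Bnc1tr/tr replicate 2. Scaling by library size alone gave 6 lower and 6 higher. DESeq2 called 19, 12 lower and 7 higher.

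Among the 14 tested Rab27 effectors and regulators (median log2 fold change 0.06, beside 0.02 over all tested genes), Sytl3 was the one called in edgeR with all 6 ovaries. It encodes a synaptotagmin-like protein that binds GTP-loaded Rab27. Its levels were 3.755, 3.988 and 3.897 CPM in Bnc1+/+ against 0.391, 0.385 and 1.128 CPM in Bnc1tr/tr, from 101 to 132 counts and 10 to 32 counts. The groups were far apart, with means of 3.88 ± 0.118 and 0.635 ± 0.427 CPM and a log2 fold change of -2.60 (SE 0.42, edgeR adjusted p = 0.013). It was past the threshold under 11 of 13 alternatives, and not without Bnc1+/+ replicate 4 or 7, where the log2 fold change was -2.59 and -2.60.

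The other synaptotagmin-like genes, Mlph and Myrip did not pass in edgeR with all 6 ovaries. Sytl4, which encodes granuphilin, a docking effector of endocrine granules, had 74.53, 68.55 and 69.15 CPM in Bnc1+/+ against 138.6, 77.79 and 103.2 CPM in Bnc1tr/tr, higher without overlap (log2 fold change 0.59, edgeR adjusted p = 0.105). It was called as higher by DESeq2 and, at 0.77, without Bnc1tr/tr replicate 2, its lowest ovary of that genotype. The log2 fold change was 0.43 for Sytl1, 0.03 for Sytl2, -0.55 for Sytl5 and 0.52 for Myrip, which encodes a linker to myosin. Mlph, whose product melanophilin links Rab27a to myosin in pigment cells, was at 1.193 to 2.230 CPM in 5 ovaries and at 4.512 CPM in Bnc1tr/tr replicate 3. Its log2 fold change of 0.44 turned to -0.47 without that ovary.

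Of 22 tested syntaxin, SNAP25 family and VAMP genes, 5 passed, all lower, with a median of -0.12 over the list. They were Stx1a (59.1 to 37.3 CPM, log2 fold change -0.66, edgeR adjusted p = 0.0435), Snap47 (105.2 to 82.2 CPM, -0.36, adjusted p = 0.033), Vamp1 (12.3 to 7.63 CPM, -0.69, adjusted p = 0.0177), Vamp5 (23.2 to 11.5 CPM, -1.01, adjusted p = 0.0304) and Vamp8. Vamp8, which encodes a vesicle SNARE of granules and late endosomes, had 92.90, 106.2 and 89.91 CPM against 64.91, 75.37 and 70.32 CPM (log2 fold change -0.46, edgeR adjusted p = 0.0347). By library size alone 2 of the list passed, and without Bnc1+/+ replicate 4, Bnc1+/+ replicate 7 or Bnc1tr/tr replicate 3 none did in edgeR (6 by unadjusted p each time). Genes of this list that did not pass were Snap23, the SNAP25 relative used by most non-neuronal cells (log2 fold change 0.12), and the syntaxin genes Stx3 (-0.27) and Stx4a (-0.11). Vamp7 was listed at 0 in all 6 ovaries. The annotation used for counting is not given, so this cannot be read as absence of the transcript.

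None of the 11 tested Sec1/Munc18 and SNARE disassembly genes passed in edgeR or DESeq2, and 3 had an unadjusted p under 0.05 in edgeR and 1 in DESeq2. Their median was 0.03. Stxbp3, a relative of Stxbp2 listed as Stxbp3a, had a log2 fold change of 0.05.

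In the list of 18 calcium sensors and other priming factors 1 gene passed in edgeR, lower. DESeq2 and scaling by library size alone each called 4, of which 3 were higher, and limma-voom and the robust edgeR fit called 0 (6 by unadjusted p in each). The gene was Baiap3, a Munc13 relative that takes part in dense core vesicle traffic, with 14.35, 36.25 and 75.67 CPM in Bnc1+/+ against 6.829, 1.809 and 2.362 CPM in Bnc1tr/tr. Its Bnc1+/+ values spread widely (42.1 ± 31.1 CPM), above a Bnc1tr/tr mean of 3.67 ± 2.75 CPM, and the log2 fold change was -3.51 (SE 0.70, edgeR adjusted p = 0.028), past the threshold under 7 of 13 alternatives. Among 12 Rab3 family genes and partners, Rab3a, the synaptic vesicle Rab, fell from 52.3 to 32.1 CPM (log2 fold change -0.71, edgeR adjusted p = 0.0254). Rph3a, the gene of rabphilin, which binds Rab3 and Rab27, rose from 3.74 to 8.09 CPM (log2 fold change 1.11, edgeR adjusted p = 0.0344). Without overlap but short of the threshold in edgeR stood Rab3b, named after its values were seen, at 3.38 against 6.86 CPM (log2 fold change 1.03, edgeR adjusted p = 0.0534), and 2 genes of this list were called higher by DESeq2, by the robust edgeR fit, with no filter and by library size alone. Exoc6 of the exocyst (1 of 9 tested) fell from 16.3 to 10.9 CPM (log2 fold change -0.58, edgeR adjusted p = 0.0367). For the biogenesis of lysosome-related granules 2 of 16 passed, Hps1 (74.3 to 53.6 CPM, -0.47, adjusted p = 0.0177) and Dtnbp1 (56.7 to 42.3 CPM, -0.43, adjusted p = 0.0284), both subunits of complexes that sort granule cargo. Of the 13 alternatives, Rab3a and Hps1 each passed under 10, Rph3a under 8, Dtnbp1 under 7 and Exoc6 under 6. Exoc6 did not pass with any ovary left out. Apart from Sytl3 and Baiap3, each of the pathway genes that fell did so by a log2 fold change of at most 1.01, against -2.80 for Unc13d and -2.69 for Rab27a.

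**Figure D3:**
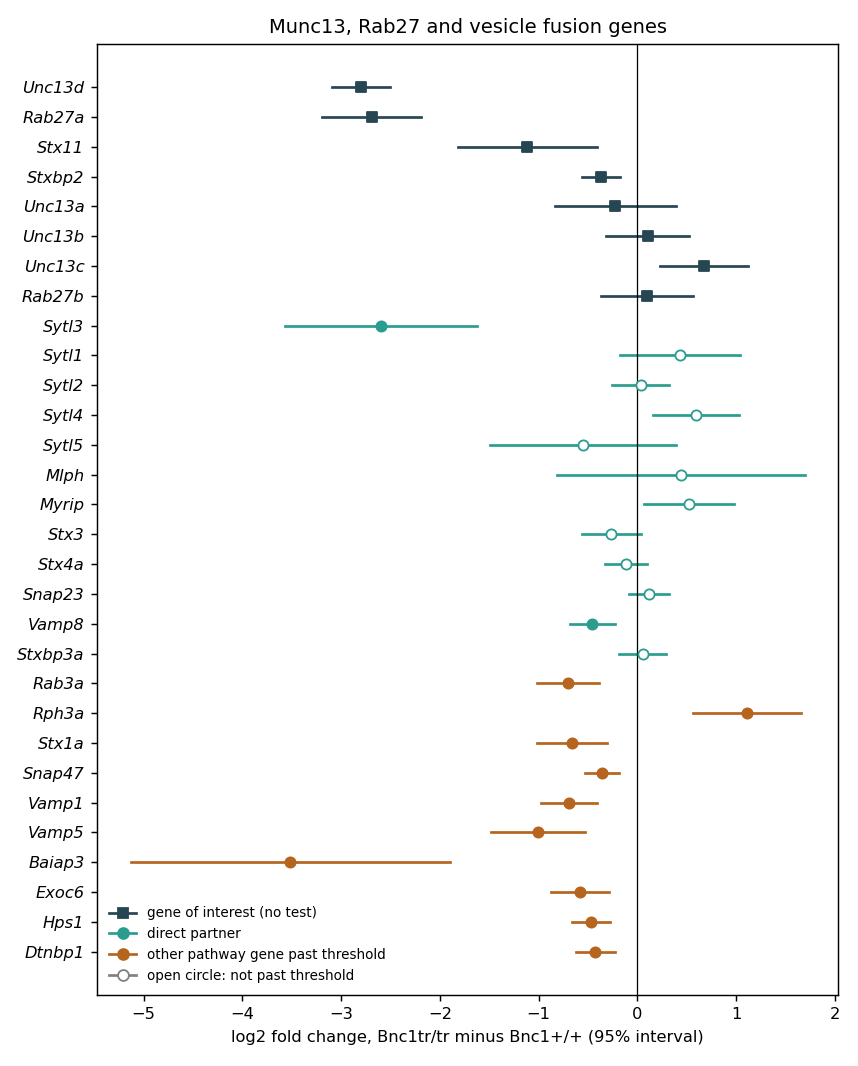
Log2 fold change, Bnc1tr/tr minus Bnc1+/+, with 95% intervals for the 8 genes (squares, no test), the direct partners and the other pathway genes past an adjusted p of 0.05. Filled circles passed and open circles did not. Unc13d, Rab27a, Sytl3 and Baiap3 lie below -2, and the others between -1.12 and 1.11.

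The genes whose profile over the 6 ovaries was most like that of Unc13d were ranked by the root mean square (RMS) difference of log2 CPM, each gene centred on its own mean, among 16752 other genes with a mean of at least 1 CPM. The nearest were Ephb2, an ephrin receptor gene (RMS 0.144), Slc47a1, an organic cation exporter gene (0.146), Lhcgr, the luteinising hormone receptor gene (0.159), Pik3c2g, a lipid kinase gene (0.189), and Apol6 (0.214). Rab27a came sixth (0.218). Sytl3 stood at rank 40, Stx11 at 355, Baiap3 at 356 and Stxbp2 at 1730, and Unc13a, Unc13b, Rab27b and Unc13c at 3608, 10490, 10749 and 15793. The ranking uses the genotype difference itself, so it describes which genes fell by a like amount with a like spread.

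Lhcgr, which this ranking chose, is shown by ovary. It had 544.5, 800.1 and 727.7 CPM in Bnc1+/+ against 92.83, 85.95 and 79.02 CPM in Bnc1tr/tr, so that per 100 CPM of Lhcgr there were 24.9, 22.5 and 23.3 CPM of Unc13d in Bnc1+/+ against 23.6, 27.1 and 31.1 in Bnc1tr/tr. The ratio was 23.6 ± 1.25 in Bnc1+/+ against 27.2 ± 3.77 in Bnc1tr/tr (SD, n = 3 each). For Rab27a the same ratio was 30.2, 26.7 and 27.3 against 21.9, 40.7 and 43.1. Ephb2 had 79.81, 89.40 and 99.98 CPM against 15.33, 13.55 and 14.63 CPM, and the log2 fold changes of the 5 nearest genes ran from -3.01 (Lhcgr) to -2.58 (Apol6).

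**Figure D4:**
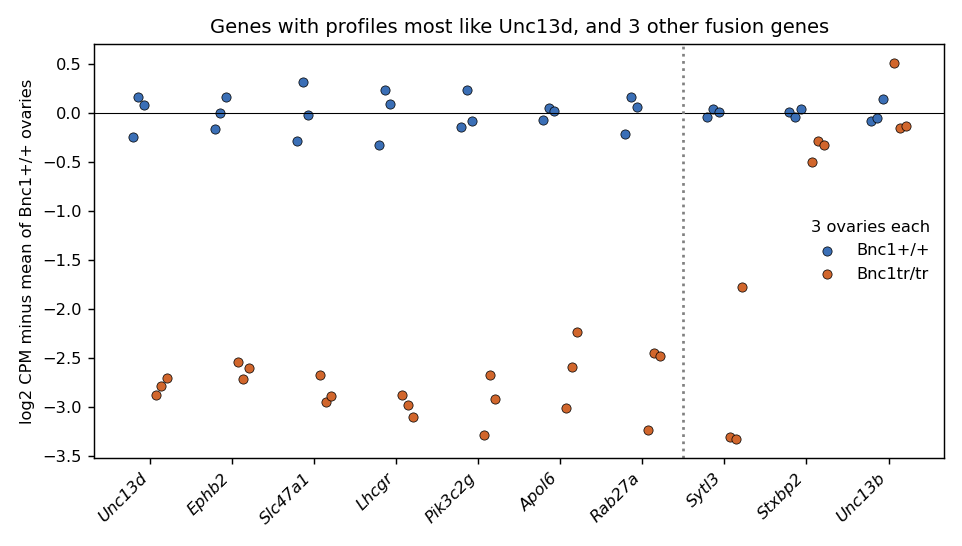
Log2 CPM minus the mean of the Bnc1+/+ ovaries for Unc13d, its 5 nearest genes and Rab27a (left of the dotted line) and for Sytl3, Stxbp2 and Unc13b, with 3 points per genotype. The genes on the left fall by 2 to 3.5 log2 units in the Bnc1tr/tr ovaries, and Stxbp2 and Unc13b stay near 0.

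Markers of the cell types that a whole ovary could hold were read beside these genes. The corpus luteum list moved with them, and 8 of its 10 genes passed, all lower (median log2 fold change -1.69), among them Lhcgr (690.7 to 85.9 CPM), Sfrp4 and Star, the gene of the cholesterol carrier of steroid synthesis. The summed luteal level was 23410 to 28110 CPM in Bnc1+/+ against 7357 to 12730 CPM in Bnc1tr/tr. Without Bnc1+/+ replicate 4 or 7 the adjusted test kept 2 of the 10, without Bnc1tr/tr replicate 3 it kept 3 and without Bnc1+/+ replicate 1 it kept 5. In each of these fits 8 were lower by unadjusted p, and the log2 fold change of Star, -2.23 with all ovaries, ran from -2.40 to -2.08. It was -1.82 without Bnc1tr/tr replicate 1 and -2.68 without Bnc1tr/tr replicate 2, where the test kept 7 and 6 of the 10. Per 1000 CPM of the luteal sum, Unc13d was at 5.80, 6.40 and 6.25 CPM in Bnc1+/+ against 2.97, 1.83 and 2.20 CPM in Bnc1tr/tr, and Rab27a at 7.03, 7.61 and 7.31 against 2.76, 2.75 and 3.05. Both were thus lower in Bnc1tr/tr per luteal sum in every ovary. Per 100 CPM of Lhcgr alone, a gene of the same list, the means were not lower in Bnc1tr/tr. They were 23.6 and 27.2 for Unc13d and 28.1 and 35.2 for Rab27a, which was at 21.9 in Bnc1tr/tr replicate 1. Lhcgr was shown because its profile was like that of Unc13d, and it fell most of the luteal list (log2 fold change -3.01). That choice largely fixed the ratio to Lhcgr, so nothing is read from its direction. The part of luteal cell content in the fall of Unc13d and Rab27a was not tested.

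Blood cell markers were read because Unc13d, Rab27a, Stx11 and Stxbp2 are known from such cells. The part of blood cell content in the fall of Unc13d and Rab27a was not tested. The 8 general leukocyte genes summed to 113.4 to 119.6 CPM in Bnc1+/+ against 88.46 to 140.2 CPM in Bnc1tr/tr, and none of the 8 passed in edgeR or DESeq2 (1 by unadjusted p in each). The sum of 15 T and NK lymphocyte genes was 14.04 to 23.64 CPM against 11.2 to 12.27 CPM, lower without overlap. None of its 10 tested genes passed in edgeR (2 by unadjusted p), and DESeq2 called 1. The log2 fold change was negative for 9 of the 10 and positive for 1, with a median of -0.55. The 1 positive gene was Prf1, the perforin gene of lytic granules. Prf1 was low, at 0.429 CPM in Bnc1+/+ against 0.694 CPM in Bnc1tr/tr (log2 fold change 0.71), and its groups overlapped. Mast cell genes summed to 32.87 to 40.45 against 20.88 to 41.13 CPM, platelet and megakaryocyte genes to 9.607 to 12.34 against 9.568 to 16.94 CPM, and macrophage genes to 588.1 to 635.1 against 401.1 to 802.7 CPM, with none passing in edgeR or DESeq2 in these 3 lists (2, 0 and 1 genes by unadjusted p in edgeR). The median log2 fold change was 1.08 over the 5 tested mast cell genes, 4 of them positive and 1 negative. It was 0.21 over the 2 tested platelet and megakaryocyte genes and -0.16 over the 9 macrophage genes, all 9 negative. Bnc1tr/tr replicate 2 held the highest macrophage and leukocyte sums, and without it 2 of 9 macrophage genes and 1 of 8 leukocyte genes passed, all lower (7 and 3 lower by unadjusted p). Neutrophil genes summed to 11.9 to 18.59 against 7.612 to 42.4 CPM, 1 of 4 tested genes passed as higher, and 3 genes of the list were at 0 in all ovaries.

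Among the other ovarian cells, the summed markers of endothelium were lower and those of the rest overlapped. Endothelial genes summed to 621.3 to 815.5 CPM in Bnc1+/+ against 429.0 to 474.7 CPM in Bnc1tr/tr, and 6 of 8 passed, 5 lower (among them Pecam1 and Esam) and 1 higher (Vwf). With 1 ovary left out 2 to 5 passed, the fewest without Bnc1+/+ replicate 4, and 3 without Bnc1+/+ replicate 7, Bnc1tr/tr replicate 1 or Bnc1tr/tr replicate 2. Oocyte genes summed to 813.0 to 1034 against 988.8 to 1496 CPM, with 4 of 13 higher, among them Astl, the gene of the cortical granule protease ovastacin (31.2 to 66.2 CPM, log2 fold change 1.08, edgeR adjusted p = 0.0153), Oosp1 and Bmp15. Of the oocyte genes 0 passed without Bnc1+/+ replicate 4, Bnc1+/+ replicate 7 or Bnc1tr/tr replicate 3 (6, 5 and 5 by unadjusted p), 2 without either replicate 1 and 7 without Bnc1tr/tr replicate 2. Of the granulosa genes (3645 to 4883 against 4044 to 6228 CPM) 1 of 10 passed, Amh, and of the theca genes (1631 to 1974 against 1818 to 2724 CPM) 1 of 6, Fabp3, both higher. Surface epithelium (335.1 to 383.1 against 363.0 to 483.3 CPM) and oviduct (32.05 to 159.3 against 20.24 to 549.2 CPM) each had 1 gene higher, Lrrn4 and Pax2, and stroma (3121 to 3690 against 3334 to 4191 CPM) none in edgeR (2 by unadjusted p, and 2 called by DESeq2). The highest oviduct sum was that of Bnc1tr/tr replicate 3, the ovary with the high Mlph value. Without that ovary the log2 fold change was -2.84 for Unc13d and -2.80 for Rab27a. Over all 13 alternatives it ran from -2.92 to -2.70 and from -2.82 to -2.48.

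**Figure D5:**
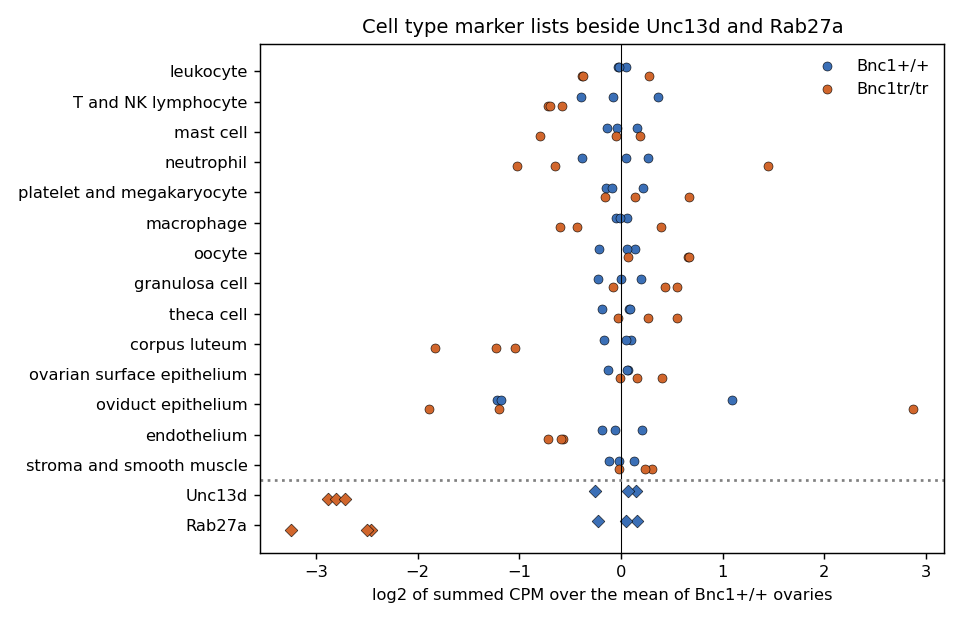
Log2 of the summed CPM of each cell type's marker genes in each ovary, relative to the mean of the Bnc1+/+ ovaries, with 3 points per genotype and Unc13d and Rab27a as diamonds below the dotted line. The corpus luteum, endothelium and T and NK lymphocyte sums of the Bnc1tr/tr ovaries lie wholly below those of the Bnc1+/+ ovaries, and the other lists overlap.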

How the data were processed

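Total RNA of whole mouse ovaries was extracted with TRIzol and sequenced single-end on an Ion Proton after library preparation with the Ion Total RNA-Seq Kit. The authors deposited 1 table of raw read counts per gene symbol for all 6 ovaries, and the aligner, counter and annotation are not given in the sources used here. The submitters' processing notes name the builds mm 10 and Sscrofa 10.2 with no role. The 8 genes and all lists were chosen with earlier results of these data known.

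Counts were fitted over all genes with edgeR 4.0.16 (R 4.3.3, quasi-likelihood F test, TMM scaling, filterByExpr with a minimum count of 10), Bnc1tr/tr against Bnc1+/+ with no covariate, and p-values were adjusted by Benjamini-Hochberg over the 19423 genes tested. The code was tested on simulated counts. CPM and RPKM were computed from the counts, RPKM with union exon lengths of GENCODE M21. Log2 CPM for likeness used a prior count of 2. Genes were named by rule: the 8 genes, Bnc1, direct partners, each pathway gene past an adjusted p of 0.05, up to 3 such genes per marker list, the 5 genes most like Unc13d, and the adjacent genes. The result of 1 partner gene is not reported here. Calls at low counts are the least precise, and 13 alternatives were run, among them library size alone, no filter, DESeq2 1.42.0, limma 3.58.1 and leaving out each ovary. The labels do not tie ovaries to litters or preparation days, so p-values measure only the spread between these samples.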

Additional observations from a re-analysis of the deposited data

How the results depend on the processing

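DESeq2 called 2420 genes (1080 higher, 1340 lower) in place of 1372, and 5 of the 8 genes, adding Stx11 and Unc13c. It called 19 pathway genes. Asking also for a log2 fold change beyond 1 left 648 genes (299 higher, 349 lower). Library size alone called 1112 genes as higher and 616 as lower, so 35.6% of its calls were lower in place of 59.3%, and it moved the median of all genes from 0.02 to 0.12. Leaving out 1 ovary gave 320 to 1282 calls (94 to 620 higher, 226 to 662 lower), 2 to 3 of the 8 genes, 0 to 13 pathway genes and 5 to 25 marker genes (23 with all ovaries). Over those fits the log2 fold change changed sign for Mlph (-0.47 to 0.75), Rab27b (-0.044 to 0.22), Stxbp3a (-0.025 to 0.11), Sytl2 (-0.034 to 0.14) and Unc13b (-0.15 to 0.22). Raw counts in place of RPKM gave shares of 97.3% and 83.8% for Rab27a and 69.9% and 24.0% for Unc13d. Except where fewer ovaries or a fold limit set it, the cause was not tested. The paper states that its comparisons were between littermates, but no paired analysis was possible because the labels do not tie ovaries to litters.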

Other observations

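Mpo, the gene of myeloperoxidase, a peroxidase stored in neutrophil granules, was the one neutrophil list gene that passed the test with all 6 ovaries. It had 0.372, 0.181 and 0.138 CPM in the Bnc1+/+ ovaries and 4.62, 2.85 and 5.08 CPM in the Bnc1tr/tr ovaries (log2 fold change 4.18, edgeR adjusted p = 0.00269). Ly6g, Elane and Ngp, which mark the same cells, were at 0 in all 6 ovaries, and S100a8 did not exceed 0.138 CPM. Ltf, another granule gene of that list, ran from 7.67 to 12.4 CPM in Bnc1+/+ and stood at 0.178, 0.962 and 33.6 CPM in Bnc1tr/tr, highest in replicate 3, the ovary with the highest sum of oviduct genes.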
